A study of Homo sapiens with 9 samples.

Results

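The comparison described here is that of HEK293 cells transfected to overexpress MOF with wild type HEK293 cells. HEK293 is an established human embryonic kidney line. Of the 9 arrays of the study 6 belong to it: 3 arrays titled as wild type, from cells given no treatment, and 3 titled as overexpression, from cells transfected with plasmids encoding human MOF. The other 3 arrays came from cells in which MOF was knocked down with small interfering RNA. Here they add to the estimate of the spread, to the term for replicate 1 and to the mean signal that decided which probe sets were tested. They also serve for values set beside those of the overexpression arrays. All arrays came from the same line in the same culture medium. The labels give no time after transfection, no plasmid dose and no name of the plasmid. The study's title sets changed amounts of MOF beside a defect in the DNA damage response, and the comparison asks which transcripts changed in cells with more MOF. The wild type cells were not transfected, and no array of cells given an empty plasmid was among the 9, so transfection and MOF cannot be told apart here. Whether replicates were separate cultures is not stated, so p-values measure only the spread between these samples, and that spread may be technical. The arrays are written WT1 to WT3 and OE1 to OE3 below, by group and replicate number.

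MOF, the product of KAT8, is a lysine acetyltransferase that places the acetyl mark on lysine 16 of histone H4, a mark that loosens the packing of nucleosomes. It works in the MSL complex, which directs it to histone H4, and in the NSL complex, which is found at the promoters of housekeeping genes. In cultured cells its loss is known to impair the response to DNA double-strand breaks.

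Each array gave 1 signal per probe set, in linear intensity units. The authors' values had the same 2% trimmed mean of 1500.2 on every array, which hides any change in the total amount of RNA in a cell. Whole cultures were measured, so a change in every cell and a larger change in some of the cells cannot be told apart. Between the arrays the log2 signals of the probe sets tested correlated at 0.966 to 0.985. Spiked poly-A controls gave 2.23-fold more signal on the arrays of replicates 2 and 3 than on the 3 replicate 1 arrays, with no overlap, and for this reason a term for replicate 1 was kept in the fit. The number of arrays, 3 in each group, limits the precision. Of the HEK293 markers 7 were tested, and as group means in wild type and then overexpression the neurofilament genes NEFL and NEFM stood at 7641 and 8281 and at 4471 and 5422, the keratin genes KRT8 and KRT18 at 955 and 1460 and at 9433 and 11120, the kidney factor gene PAX2 at 415 and 618, the intermediate filament gene VIM at 78260 and 70090, and the RNA-binding factor gene LIN28B at 12970 and 11650. By limma 1 of the 7 was called, KRT8 (higher), a call lost without every array but OE2 (adjusted p up to 0.15), and 4 were higher and 2 lower at an unadjusted p under 0.05. Of the 17 genes that mark blood, endothelium, fibroblasts, liver or neurons and were on the array, 6 reached the level needed for a test. By limma with Benjamini-Hochberg adjustment 0 of the 6 passed, and 0 had an unadjusted p under 0.05. Of the 6, the fibroblast marker COL1A1 stood at 2175 and 2379 and the neuron marker SYT1 at 1730 and 1558 as group means, both above KRT8. The rest of the 6 ran from 238.2 to 298.8 in wild type. Among those not tested, the blood marker PTPRC stood at 44.4 and 28.5, and the liver marker ALB at 57.9 and 50.97. The HEK293 marker LHX1, at 85.9 and 168.6, was not tested either.

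KAT8 itself was higher in the overexpression arrays. Its bright probe set had signals of 2909.5, 3797 and 3249 in the wild type arrays and 4594, 4727 and 4763 in the overexpression arrays, against 432, 705.8 and 517.1 in the knockdown arrays. The wild type and overexpression groups did not overlap. The rise was 0.51 on the log2 scale (SE 0.13, adjusted p = 0.0478 by limma with Benjamini-Hochberg adjustment), or 1.42-fold, while p was 0.1 in an exact permutation test (two-sided), the least possible with 3 against 3. This call is narrow. The adjusted p was 0.259 without the term for replicate 1, and without any single array it ran from 0.0588 (without OE2) through 0.0819 (WT2), 0.123 (OE3), 0.144 (WT1) and 0.173 (WT3) to 0.224 (OE1). A dimmer KAT8 probe set stood at 428.3, 498.9 and 400.7 in wild type and at 656.6, 428.3 and 380.8 after overexpression, where the groups overlapped (log2 change 0.11, SE 0.25, adjusted p = 0.854). Neither the stretch of the KAT8 transcript that each probe set reads nor the insert of the plasmid was known here.

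Across all genes the calls were few and mostly of small changes, and true changes can have been missed. Of 27307 probe sets tested, 1109 (4.06%) passed an adjusted p of 0.05 in limma and are called changed below. Of these 607 (2.22%) were higher and 502 (1.84%) lower after overexpression. With the brightest tested probe set standing for each gene, 643 of 12036 genes (5.34%) were called, 330 higher (2.74%) and 313 lower (2.6%). The median log2 change over all genes was 0.0003, and 50.1% of genes had a positive change. The groups of 3 did not overlap for 2300 genes (19.1%), and they did not for 535 of the 643 called. At an unadjusted p under 0.05 there were 2834 genes (23.5%), of which 1386 were higher (11.5%) and 1448 lower (12%), and the unadjusted counts of gene lists below stand beside these shares.

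The number of calls leaned on the term for replicate 1 and on single arrays. Without the term 130 probe sets (0.476%) were called, 87 higher and 43 lower, and all 130 were among the 1109. In genes this was 76 (0.631%), and 72.4% of them were higher. Leaving out 1 array gave 208 higher and 156 lower probe sets without WT1, 245 and 184 without WT2, and 219 and 155 without WT3. It gave 186 and 149 without OE1 and 170 and 165 without OE3, but 653 and 604 without OE2. Through all 6 of these fits 122 genes kept their call, 70 higher and 52 lower, and 98 kept it in none. A gene that kept its call in all 6 is called steady below. Unless stated otherwise the genes named are steady, and counts of steady members are given beside the counts called.

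Most changes were below 2-fold. Among the genes called higher the median fold was 1.395 and the largest 14.14, with 211 under 1.5-fold, 85 from 1.5-fold to 2-fold and 34 at 2-fold or more. Those called lower had a median of 1.309 and a largest of 3.654, with 267, 35 and 11 genes in the same classes. The steady genes had medians of 1.632 (higher) and 1.403 (lower). The plot of change against signal level shows the few rises above 2 on the log2 scale, FOS, ETV5, EGR1 and MAFF, standing apart from a narrow band.

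**Figure D1:**
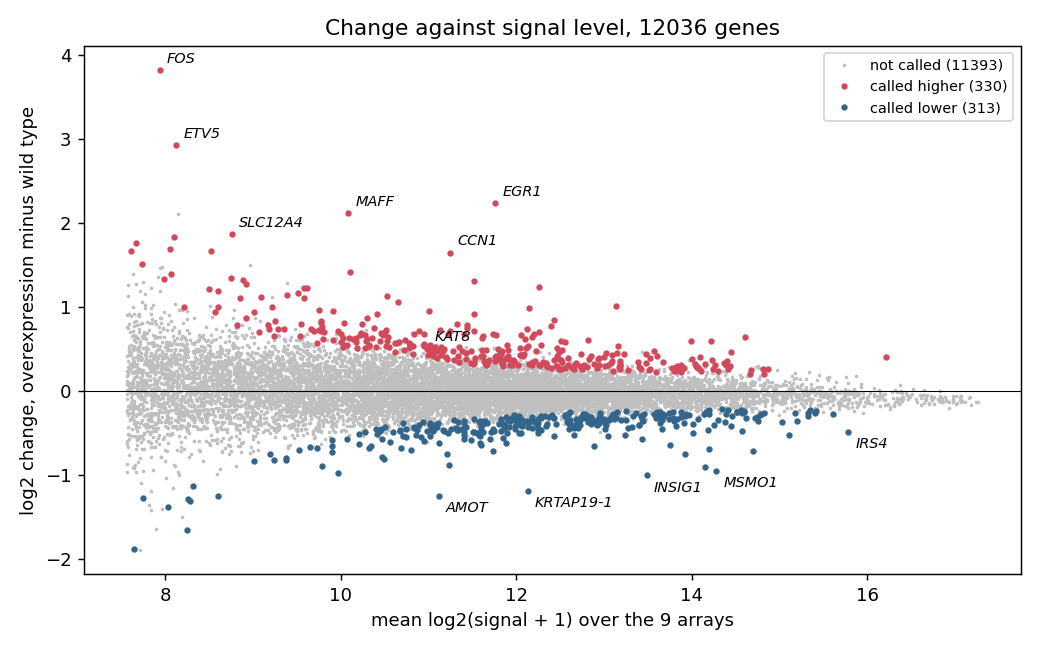
Each point is 1 of 12036 genes, at its mean log2(signal + 1) over the 9 arrays (horizontal axis) and its log2 change, overexpression minus wild type, from the limma fit (vertical axis). Of these, 330 genes called higher are in red, 313 called lower in blue, and the band of genes not called narrows towards bright signals.

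The 4 largest rises, of FOS, ETV5, EGR1 and MAFF, were those of immediate early genes, which cells switch on within minutes of a growth factor or stress signal without new protein synthesis, and of feedback genes of the ERK kinase pathway. Over 4 lists of such genes 55 were tested. Of these 19 rose (34.5%, against 2.74% of all genes) and 1 fell, 47 had a positive log2 change, and the median change was 0.43 against 0.0003 for all genes. Steady rises were 13. These lists were drawn up with earlier results of these data known, so the counts describe them and do not test them. In the knockdown arrays, set against the same wild type arrays, 22 of the 55 were higher (12.9% of all genes were) and 1 was lower (20.5% of all genes), that 1 being EGR1.

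EGR1, a zinc finger factor and one of the first genes transcribed after ERK is activated, had signals of 2902, 3106 and 3299 in the wild type arrays and 17289.5, 13040.2 and 13908 in the overexpression arrays. All overexpression arrays lay far above all wild type arrays, and the change was 2.24 (SE 0.14, adjusted p = 5.91e-06), or 4.72-fold. Both other EGR1 probe sets moved the same way, with log2 changes of 1.53 and 2.28. Its log2 change in the knockdown arrays was -1.76 (adjusted p = 6.68e-06), where 33.4% of all genes were called. EGR3 rose by 1.33 on the log2 scale (adjusted p = 0.0358), but lost its call without each of the 6 arrays in turn, with adjusted p up to 0.109.

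FOS encodes a subunit of the AP-1 dimer. Its signals were 106, 23.4 and 202 in the wild type arrays and 1147, 908 and 1429.5 in the overexpression arrays. The wild type mean, 110.3, and the knockdown mean, 165.2, both lay below the mean signal of 188.3 needed for a test. FOS reached that level only through the overexpression arrays. The wild type values spread widely, but all 3 overexpression arrays lay above them, and the log2 change was 3.82 (SE 0.58, adjusted p = 0.00354). MAFF, a small MAF factor that lacks an activation domain and dimerises with other leucine zipper factors, had 623, 627 and 646 in the wild type arrays and 2588, 2793 and 2899 in the overexpression arrays. The wild type arrays lay close together, the groups were far apart, and the change was 2.12 (SE 0.11, adjusted p = 3.13e-06), or 4.36-fold. ATF3, a stress-induced repressor of the same zipper family, went from 3479, 3016 and 3401 to 8792, 7050.1 and 7563, a change of 1.24. In all, 6 of the 10 AP-1 and small MAF genes tested rose (60%, against 2.74% of all genes) and 0 fell in limma (8 were higher and 1 lower at an unadjusted p under 0.05), with 3 steady and a list median of 0.82. The other called members, FOSL1, MAFG and JUNB, lost their calls in some of these fits: FOSL1 without OE1 (adjusted p = 0.0587), and MAFG and JUNB without every array but OE2, with adjusted p up to 0.181 and 0.199. Of the 10, 6 were higher and 0 lower in the knockdown arrays, with log2 changes there of 0.98 for FOS (adjusted p = 0.226), 0.21 for MAFF (adjusted p = 0.187), 0.49 for ATF3 and 1.46 for FOSL1. MAF itself, a large MAF factor outside that list, fell by 0.45 on the log2 scale.

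The starts of these genes are shown because their upstream sequences are well known to bind the factors that ERK and calcium signals act on. Each window runs from 250 bases before to 50 bases after the start of transcription in RefSeq (GRCh38.p14, plus strand). In the EGR1 window (chr5:138465229-138465528) capitals mark CArG boxes, the sites of serum response factor, and the half-site TGACG of the cAMP response element on either strand. In the windows of MAFF (chr22:38201744-38202043) and FOS (chr14:75278578-75278877) they mark TGACG alone, which in MAFF lies within the full element TGACGTCA. A second MAFF window (chr22:38202770-38203069) held neither motif and is not shown.
EGR1: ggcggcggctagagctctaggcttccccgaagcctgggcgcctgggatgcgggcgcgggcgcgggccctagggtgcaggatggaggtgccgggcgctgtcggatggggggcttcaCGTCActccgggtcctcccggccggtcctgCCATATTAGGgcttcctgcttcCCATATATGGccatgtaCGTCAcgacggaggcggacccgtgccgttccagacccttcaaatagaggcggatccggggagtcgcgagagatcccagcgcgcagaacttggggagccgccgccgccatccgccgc
MAFF: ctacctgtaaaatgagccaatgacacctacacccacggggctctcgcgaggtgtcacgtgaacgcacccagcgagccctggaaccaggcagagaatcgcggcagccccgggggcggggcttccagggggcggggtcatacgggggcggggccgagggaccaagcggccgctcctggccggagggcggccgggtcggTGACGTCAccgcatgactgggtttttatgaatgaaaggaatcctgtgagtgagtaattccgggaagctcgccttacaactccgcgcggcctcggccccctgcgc
FOS: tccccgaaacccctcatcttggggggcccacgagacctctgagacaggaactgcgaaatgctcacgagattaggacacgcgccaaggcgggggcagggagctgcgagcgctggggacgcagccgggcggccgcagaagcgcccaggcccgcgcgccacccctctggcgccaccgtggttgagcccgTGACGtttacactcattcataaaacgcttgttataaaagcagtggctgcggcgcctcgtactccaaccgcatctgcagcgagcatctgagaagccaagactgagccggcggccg

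Counted from the start, EGR1 held CArG boxes at -105 and -83 and half-sites at -135 and -66. The half-site of FOS lay at -64, and the palindrome of MAFF gave matches at -54 and -51. Among 42 of the 55 genes with a window, a CArG box was found in EGR1 and in SRF, 1.62% of all tested genes with a window held one, and 1.6% of all genes in the table did. Sequence farther upstream than the windows was not searched. A window without a CArG box, such as that of FOS, therefore does not show that the gene lacks one. TGACG was searched on both strands and counted also where it is part of TGACGTCA. A gene was counted if any of its windows held the motif. TGACG was present in 10 of the 14 members that rose and had a window (71.4%) and in 24 of the 42 tested members (57.1%). The share was 49.2% of all genes called higher, 44% of genes called lower, 40.9% of tested genes and 28.4% of all genes in the table. It was also in 5 of 7 cholesterol genes called lower (71.4%), so it was not particular to genes that rose. TGACGTCA was present in 2 of the 14 members that rose and in 6 of the 42 (14.3%). It was in 6.06% of genes called higher, 2.91% of genes called lower, 3.88% of tested genes and 2.25% of all. A match is a run of letters in a window and says nothing of binding in these cells.

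Of the 22 IER, KLF and other immediate early genes, 4 rose (18.2%, against 2.74% of all genes) and 1 fell (4.55%, against 2.6%), with a list median of 0.26. IER2, a short nuclear protein of the early response, went from 6420.3, 6195 and 5735 to 13301, 11077 and 12826 (1.02 (SE 0.07, adjusted p = 1.64e-05)), with a spread between arrays far smaller than the step. IER3 rose by 0.68 and GEM, a small GTPase that inhibits calcium channels, by 1.14. Of the 22, 9 were higher and 0 lower in the knockdown arrays, with log2 changes of 0.66 for IER2, 0.77 for IER3 and -0.11 for GEM (adjusted p = 0.612). The nuclear receptor gene NR4A1 rose by 1.33 and TSC22D1 fell by 0.25, and both lost their calls without every array but OE2, with adjusted p up to 0.161 and 0.199.

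Of the 19 ERK feedback genes 7 were called higher (36.8%), 0 were called lower in limma (12 and 0 at an unadjusted p under 0.05), 18 had a positive change, and the median was 0.59. ETV5, a PEA3-type ETS factor and a classic readout of ERK activity, had 81.8, 206 and 101 in the wild type arrays and 734, 831 and 1269 in the overexpression arrays. The wild type mean, 129.8, lay below the mean signal of 188.3 needed for a test, and the knockdown mean was 197.9. The wild type and overexpression groups did not overlap, and the change in limma was 2.93 (SE 0.33, adjusted p = 0.000471). Its relative ETV1 rose by 1.14, from 420.3, 401 and 367 to 738, 939 and 965. Among the phosphatases that switch ERK and related kinases off, DUSP6 had 184, 113 and 181 in the wild type arrays and 704, 616 and 398 in the overexpression arrays (change 1.83 (SE 0.28, adjusted p = 0.00362)) and DUSP1 4412, 3621 and 3950.2 in the wild type arrays and 7312, 6985 and 7155 in the overexpression arrays (change 0.84 (SE 0.08, adjusted p = 0.000107)). OE3 was the lowest of its group for DUSP6 and still lay above all wild type arrays. The DUSP6 wild type mean, 159.5, was also below 188.3, and its knockdown mean was 236.6. SPRY2 and SPRED2, inhibitors that act upstream of ERK, rose by 0.62 and 0.68. The last called member, the growth factor HBEGF, was named after its values were seen. It rose by 0.77 and lost its call without WT2, WT3, OE2 or OE3, with an adjusted p of up to 0.138. Of the 19, 7 were higher and 0 lower in the knockdown arrays, with log2 changes of 1.12 for ETV1, 0.57 for DUSP1 and 0.70 for ETV5 (adjusted p = 0.13).

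**Figure D2:**
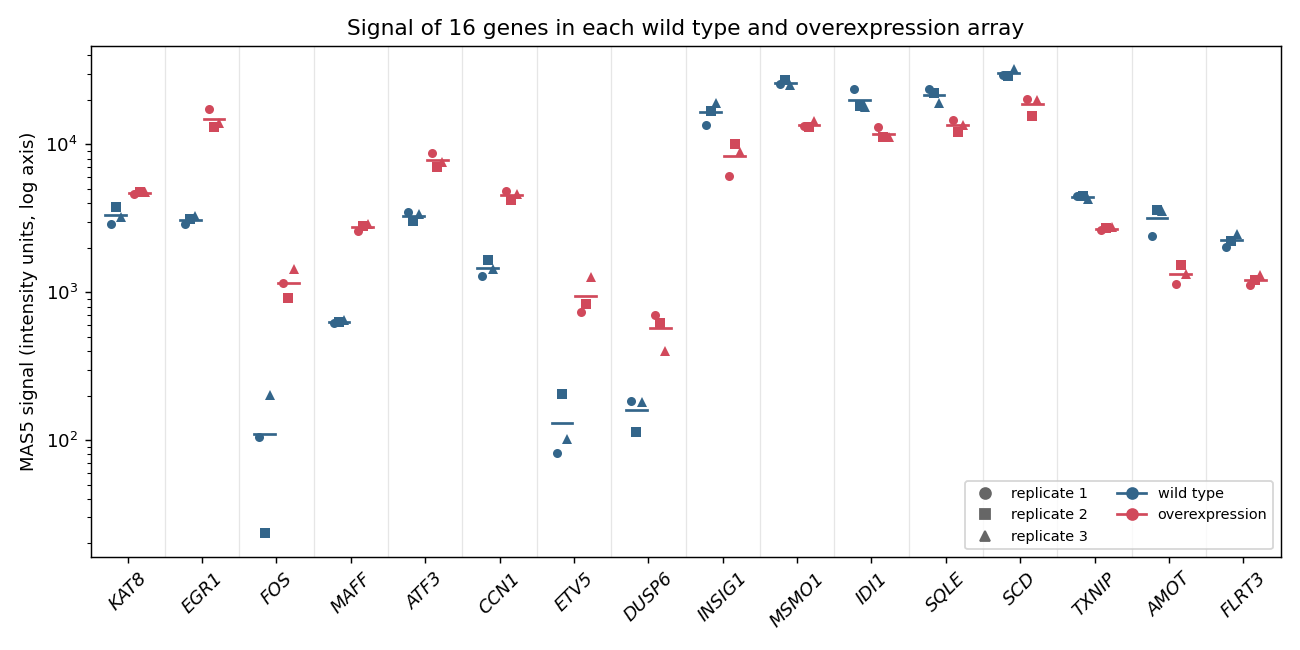
Signal (vertical axis, MAS5 intensity units, log scale) of 16 genes in each of the 3 wild type (blue) and 3 overexpression (red) arrays, with the marker shape giving the replicate and the bar the group mean of signal. For EGR1, FOS, MAFF, ATF3, CCN1, ETV5 and DUSP6 all red points lie above all blue ones, and for INSIG1, MSMO1, IDI1, SQLE, SCD, TXNIP, AMOT and FLRT3 below.

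YAP and TEAD are the effectors of the Hippo pathway. A list of their targets also held AMOT and YAP1 itself, and these were the 2 called falls, while CCN1, CCN2, GADD45B and AJUBA rose. CCN1, a secreted matrix protein that is also an immediate early gene, had 1282, 1661 and 1443 in the wild type arrays and 4858, 4217 and 4637 in the overexpression arrays (change 1.65 (SE 0.11, adjusted p = 7.71e-06)). CCN2, its close relative, rose by 1.11 from dim values of 270.5, 247 and 381 to 566, 699 and 653. GADD45B, which has roles in stress signalling and DNA repair, rose by 1.23. Against these, AMOT, the scaffold that holds YAP in the cytoplasm, fell from 2396, 3624 and 3522 to 1129.6, 1539.8 and 1330.4, a change of -1.24 (SE 0.12, adjusted p = 0.000134). Replicate 1 was the dimmest array of both groups, and the fall was seen in each replicate. Of the 23 genes of the list 4 rose (17.4%, against 2.74% of all genes) and 2 fell (8.7%, against 2.6%), with a median of 0.04. The other fall, that of YAP1 (-0.34), was lost without WT3 or OE3, with adjusted p up to 0.0809, and its groups overlapped. The other rise, that of AJUBA (0.42), held only without WT1, with adjusted p up to 0.126 in the other fits. ID1, an inhibitor of basic helix-loop-helix factors and a target of BMP signals, rose by 0.80 (adjusted p = 0.000515). It was the sole call among 18 ID, TGF-beta and BMP feedback genes (5.56%, against 5.34% of all genes).

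Among the 54 gene lists, falls were most numerous in cholesterol synthesis and uptake. The pathway turns acetyl-CoA into sterols, and its genes are driven together by the factor SREBP2 when sterols run low, with INSIG1 as a target that holds SREBP in the endoplasmic reticulum. Of 21 genes of synthesis and uptake 8 fell (38.1%, against 2.6% of all genes), 0 rose in limma (1 was higher and 12 lower at an unadjusted p under 0.05), and 2 had a positive change. The median was -0.24, and in the separate replicates it was -0.28, -0.26 and -0.27. Steady falls were 5, and 3 of the 8 passed without the term for replicate 1.

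MSMO1, the sterol C4 methyl oxidase, had 25759.7, 27325 and 25372 in the wild type arrays and 13259, 13170.1 and 14319 in the overexpression arrays. All 3 overexpression arrays stood close to each other and far below wild type, and the change was -0.95 (SE 0.07, adjusted p = 1.04e-05), or 1.93-fold lower. INSIG1 went from 13527, 16869 and 19120 to 6116, 9994 and 8909.6 (a change of -1.0006, SE 0.07, adjusted p = 1.71e-05), with replicate 1 the dimmest array of both groups. IDI1, the isomerase that makes dimethylallyl diphosphate, went from 23586, 18254 and 17892 to 13021, 11216 and 11232, a change of -0.74. SQLE, the squalene epoxidase and a rate-controlling step, changed by -0.69 and DHCR7, which makes cholesterol from its last precursor, by -0.45. Less steady were the falls of HMGCS1 (-0.48), which lost its call without either replicate 1 array, WT3 or OE3 (adjusted p up to 0.132), of FDPS (-0.24), lost without every array but OE2 (up to 0.122), and of LSS (-0.39), lost without each array in turn (up to 0.126). FDPS and LSS were named after their values were seen. In the knockdown arrays, against the same wild type arrays, 2 of the 21 were higher and 7 lower, and the log2 changes were -0.52 for INSIG1, -0.25 for MSMO1, -0.31 for IDI1 and 0.08 for SQLE.

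The windows of MSMO1 (chr4:165327419-165327718) and INSIG1 (chr7:155297628-155297927), cut in the same way from RefSeq on GRCh38.p14 and both on the plus strand, are shown because the sterol genes are known for promoters in which the CCAAT-binding factor NF-Y works beside SREBP. Capitals mark CCAAT on either strand.
MSMO1: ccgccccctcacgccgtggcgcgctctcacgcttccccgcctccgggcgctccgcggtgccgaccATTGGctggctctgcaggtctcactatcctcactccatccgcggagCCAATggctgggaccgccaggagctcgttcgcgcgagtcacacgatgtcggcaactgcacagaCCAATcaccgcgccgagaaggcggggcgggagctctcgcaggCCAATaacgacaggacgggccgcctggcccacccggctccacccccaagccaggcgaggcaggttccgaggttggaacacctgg
INSIG1: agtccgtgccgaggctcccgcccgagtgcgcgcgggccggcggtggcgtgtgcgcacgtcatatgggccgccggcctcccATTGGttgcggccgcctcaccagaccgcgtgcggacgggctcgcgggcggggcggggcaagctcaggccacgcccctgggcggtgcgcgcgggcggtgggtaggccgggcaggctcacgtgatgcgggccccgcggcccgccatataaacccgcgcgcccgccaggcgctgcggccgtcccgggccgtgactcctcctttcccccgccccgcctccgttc

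MSMO1 held CCAAT at -185, -139, -76 and -34 from the start, and INSIG1 at -170. CCAAT was found in 7 of the 7 sterol genes that fell and had a window, and in 17 of the 19 tested sterol genes with one (89.5%). It was in 43.6% of tested genes and 39.7% of all genes in the table. The sterol response element in the form TCACNCCAC was in 1 of the 19, SREBF2, and in 1.4% of tested genes. Sequence outside the windows was not searched for it.

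Beyond sterols, SCD, the stearoyl-CoA desaturase, was the 1 gene of 20 in fatty acid synthesis to be called (5%, against 5.34% of all genes). It fell from 29390, 29049 and 32244 to 20379, 15666 and 19860.4 (-0.71 (SE 0.09, adjusted p = 0.000945)), and the list's median was -0.06. TXNIP, a glucose-responsive target of MondoA that binds thioredoxin, fell from 4476, 4504 and 4239 to 2623, 2704 and 2745 (-0.71 (SE 0.08, adjusted p = 0.00036)), with a narrow spread in both groups. In its list of 19 MYC and MondoA genes 4 fell (21.1%, against 2.6% of all genes), 0 rose in limma (also 0 at an unadjusted p under 0.05), and the median was -0.07. The others were ARRDC4 (-0.49), ARRDC3 (-1.28) and MYC (-0.30). ARRDC3 lost its call without WT3 or OE3 (adjusted p up to 0.0642), ARRDC4 without either replicate 1 array or WT3 (up to 0.0587), and MYC without any wild type array or OE3 (up to 0.0687).

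Of 23 genes of the amino acid and stress response under ATF4, 6 were called higher (26.1%) and 2 lower (8.7%), 18 had a positive change, and the median was 0.18. The steady members were PPP1R15A, which directs a phosphatase to the initiation factor eIF2 alpha, and DDIT4, an inhibitor of mTOR signalling. PPP1R15A rose from 1158, 1135 and 903 to 2695, 1908 and 2118 (1.07 (SE 0.12, adjusted p = 0.000681)), and DDIT4 fell from 15802, 15924 and 14254 to 12068, 11511 and 11638 (-0.38 (SE 0.06, adjusted p = 0.00331)). CHAC1, which degrades glutathione, rose by 1.10, a call lost without OE1, WT2 or WT3 (adjusted p up to 0.0973). Of 22 amino acid transporters 3 rose (13.6%, against 2.74% of all genes) and 0 fell in limma (6 and 0 at an unadjusted p under 0.05). SLC3A2, the heavy chain that carries several of them to the membrane, rose from 2603, 3682 and 2748 to 5455, 6340 and 5957 (0.99 (SE 0.10, adjusted p = 0.000203)). Its light chain gene SLC7A5 rose by 0.59, which was lost without WT2, WT3 or OE3 (adjusted p up to 0.071). The chaperones and sensors of the unfolded protein response had a median of 0.0009, and 1 of 25 was called (4%, against 5.34% of all genes). Of 17 tRNA synthetases 2 rose (11.8%, against 2.74% of all genes) and 2 fell (11.8%, against 2.6%), and CARS1 (0.42) was the steady one.

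**Figure D3:**
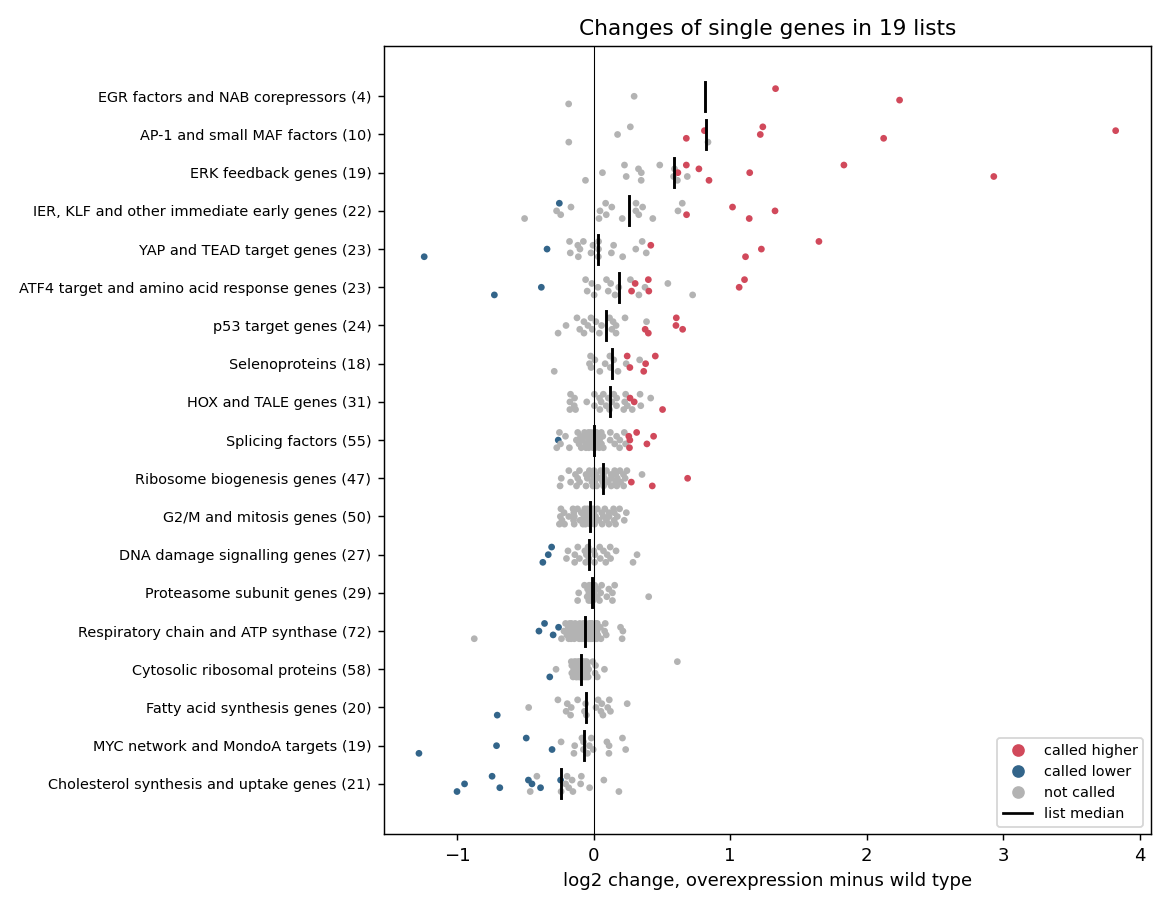
Each point is 1 gene at its log2 change, overexpression minus wild type (horizontal axis), in 19 gene lists (rows, with the number of genes tested), coloured by whether limma called it higher (red), lower (blue) or neither (grey). Black bars mark list medians, which run from 0.82 for AP-1 and small MAF factors to -0.24 for cholesterol synthesis and uptake.

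Several of the largest changes fell outside these pathways. SYTL5, a synaptotagmin-like protein that binds Rab27, had 694, 566 and 728 in the wild type arrays and 1746, 1817 and 1719 in the overexpression arrays (change 1.42 (SE 0.18, adjusted p = 0.00116)). ZCCHC12, a zinc knuckle coactivator of BMP signalling, went from 2451, 2621 and 2330.4 to 6307, 5967 and 6141 (1.32 (SE 0.11, adjusted p = 4.54e-05)). FAM13B rose by 0.91, and TNFRSF12A, the receptor of the cytokine TWEAK, by 0.92. In the knockdown arrays, against the same wild type arrays, the log2 changes were 0.80 for SYTL5, -0.57 for ZCCHC12, 0.42 for FAM13B and 0.92 for TNFRSF12A, all called. UBALD1 rose by 0.87, a call that held only without OE2, with adjusted p up to 0.187 otherwise.

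On the side of the falls, KRTAP19-1, a keratin-associated protein gene, had 6123, 6124 and 6130 in the wild type arrays and 2718, 2906 and 2489 in the overexpression arrays. Its wild type signals were nearly equal, and the change was -1.18 (SE 0.07, adjusted p = 5.91e-06). FLRT3, a membrane protein that binds FGF receptors and latrophilins, fell from 2016, 2237 and 2466 to 1119, 1215 and 1307 (-0.88 (SE 0.09, adjusted p = 0.000267)). SHISA2, an inhibitor of WNT and FGF receptor maturation, fell from 15738, 18681 and 19580.4 to 9923, 8904 and 10132 (-0.89 (SE 0.08, adjusted p = 0.000134)). CCDC138 fell by 0.74. In the knockdown arrays the log2 changes were -0.17 for KRTAP19-1 (adjusted p = 0.108), 1.20 for FLRT3, 0.94 for SHISA2 and -0.07 for CCDC138 (adjusted p = 0.622). Of the other large falls, C16orf46 (-0.81), ATP8A1 (-0.78), ALDH1L2 (-0.73) and AASS (-0.70) had groups of 3 that overlapped, since replicate 1 was dim in both groups. Each was lost without some single arrays, with adjusted p up to 0.106 without WT2, WT3, OE1 or OE3 for C16orf46, up to 0.0531 without OE1 or WT2 for ATP8A1, and up to 0.0966 and 0.18 for ALDH1L2 and AASS without any array but OE2.

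The study is framed around DNA damage. Of 27 damage signalling genes 3 fell (11.1%, against 2.6% of all genes) and 0 rose in limma (4 were lower and 3 higher at an unadjusted p under 0.05, 25.9% of the list against 23.5% of all genes), with a median of -0.04. These were MDC1 (-0.31), ATR (-0.37) and RAD50 (-0.33), which carry the signal at or from broken DNA. All were under 0.5 on the log2 scale, and none of the 3 was steady: MDC1 and RAD50 lost their calls without each of the 6 arrays in turn, with adjusted p up to 0.106 and 0.14, and ATR without every array but OE2, up to 0.123. Of 31 double-strand break repair genes 2 fell (6.45%, against 2.6% of all genes) and 0 rose in limma. At an unadjusted p under 0.05, 8 were lower (25.8%, against 12% of all genes) and 1 higher (3.23%, against 11.5%). The list's median was -0.05, but 0.05 when the probe sets of each gene were averaged. The genes called were RPA3 (-0.29) and PRKDC (-0.25), and neither was steady. RPA3 was lost without either replicate 1 array or WT3 (up to 0.0787), and PRKDC without every array but OE2 (up to 0.151). Of 37 genes of excision, mismatch and crosslink repair 2 rose (5.41%, against 2.74% of all genes) and 0 fell in limma (5 and 4 at an unadjusted p under 0.05), with a median of 0.0023.

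Of 24 targets of p53, the factor activated by such damage, 5 were called higher (20.8%, against 2.74% of all genes) and 0 lower in limma (9, or 37.5%, and 2, or 8.33%, at an unadjusted p under 0.05, against 11.5% and 12% of all genes), and the median was 0.09. PMAIP1, a BH3-only inducer of apoptosis, rose from 21586, 20442 and 19506 to 31998, 34135 and 30537 (0.65 (SE 0.06, adjusted p = 0.000203)). CDKN1A, the cell cycle inhibitor p21, rose from 5111, 4562 and 4289 to 7446, 6598 and 7126 (0.60 (SE 0.07, adjusted p = 0.000437)), and GADD45A rose by 0.60. For all 3 the groups were apart. Against the same wild type arrays, 19 of the 24 were higher (12.9% of all genes were) and 0 lower (20.5% of all genes) in the knockdown arrays. The list's median there was 0.51. In G2/M and mitosis 0 of 50 genes passed in limma (6 were higher and 10 lower at an unadjusted p under 0.05, 32% of the list against 23.5% of all genes), with a median of -0.03. In G1/S and DNA replication 2 of 54 rose (3.7%), the thymidine kinase gene TK1 (0.34) and the E2F factor gene E2F3 (0.30). TK1 was lost without OE1, OE3 or WT2 (adjusted p up to 0.0562) and E2F3 without each array in turn (up to 0.135).

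Of MOF's own complexes 12 genes were tested, with 2 called higher (16.7%, against 2.74% of all genes), a median of 0.17 and 9 positive. Beside KAT8, OGT, the O-GlcNAc transferase that is a subunit of NSL, was called, at 0.32 (adjusted p = 0.0224), and it lost the call without WT2 or OE3 (up to 0.0918). Among 24 other histone acetyltransferases and 18 deacetylases and sirtuins 0 were called in limma, with 5 and 3 at an unadjusted p under 0.05 (20.8% and 16.7%, against 23.5% of all genes) and medians of 0.01 in both lists. In Polycomb and Trithorax 1 of 33 was called (3.03%), in chromatin remodelling 1 of 42 (2.38%), and among histone genes 1 of 18 (5.56%), against 5.34% of all genes.

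HOX and TALE genes, which set position along the body axis, had 24 of 31 positive changes, a median of 0.12, 3 called higher (9.68%) and 0 lower in limma (4 and 1 at an unadjusted p under 0.05). In replicate 2 the list's median was 0.0008, against 0.15 in replicate 1 and 0.16 in replicate 3. Against the same wild type arrays, 21 of the 31 were higher (12.9% of all genes were) and 0 lower (20.5% of all genes) in the knockdown arrays. The list's median there was 0.56. HOXC11 (0.50), HOXB7 (0.30) and HOXB2 (0.27) were the genes called. HOXC11 was lost without either replicate 1 array (adjusted p up to 0.068), HOXB7 without every array but OE2 (up to 0.121) and HOXB2 without each array in turn (up to 0.187).

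Small shifts made up most of the calls: 416 of 643 genes changed by under 0.5 on the log2 scale, 175 higher and 241 lower. Among the rises of this size with the smallest p were the splicing factor gene SRSF6, from 10111, 9426 and 9853 to 13092, 13278 and 13456 (0.44 (SE 0.06, adjusted p = 0.00141)), and SELENOT, from 7191, 7930.4 and 8225 to 10291, 11191 and 10407 (0.45 (SE 0.06, adjusted p = 0.00173)). UGCG, the glucosylceramide synthase, rose by 0.46, HEXIM1, an inhibitor of the elongation kinase P-TEFb, by 0.49, and LPCAT1 and CALCB by 0.44 and 0.48. In each gene OE1 to OE3 were all above WT1 to WT3. Among the falls were IRS4, the insulin receptor substrate that HEK293 cells make in large amounts, from 65965, 70334 and 81016 to 50055, 53909 and 51078 (-0.48 (SE 0.06, adjusted p = 0.00131)), and MGST1, a membrane glutathione transferase, from 16269.9, 16605 and 16395 to 12805, 12272 and 11985 (-0.41 (SE 0.05, adjusted p = 0.00152)). CMC4, CALD1, CYFIP2, PPA2 and TPP1 fell by 0.40 to 0.45.

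Selenoproteins, which carry selenocysteine and serve mainly in redox chemistry and in the endoplasmic reticulum, had 5 of 18 called higher (27.8%, against 2.74% of all genes), 0 lower in limma (8 and 1 at an unadjusted p under 0.05) and a median of 0.13. GPX1, a glutathione peroxidase, went from 13326, 15825 and 15752 to 17221, 20089 and 20579 (0.37), SELENOH from 14329.5, 15029 and 14213 to 19122, 18412 and 19179 (0.38), and SELENOT is given above. The list's medians in replicates 1, 2 and 3 were 0.12, 0.15 and 0.22. SELENOK (0.27) and SELENOS (0.25) were called but not steady. SELENOK was lost without either replicate 1 array, WT2 or OE3 (adjusted p up to 0.0783) and SELENOS without each array in turn (up to 0.106).

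Of 55 splicing factors 6 rose (10.9%) and 1 fell (1.82%) around a median of 0.0038, with SRSF5 (0.31) and SRSF6 steady. Of 47 ribosome biogenesis genes 3 rose (6.38%), led by RRP1 (0.69), and 0 fell in limma (8 and 3 at an unadjusted p under 0.05). Among 35 translation factors EIF5, which triggers GTP hydrolysis at start codons, was alone in being called and fell from 41481, 36816 and 38448 to 30794, 25705 and 25173 (-0.52 (SE 0.05, adjusted p = 0.000267)). The cytosolic ribosomal protein genes had a median of -0.09 with 53 of 58 negative, but only RPL22L1 (-0.32) was called, and it was lost without WT1 or WT3 (adjusted p up to 0.0792). With quantile normalization the median was -0.01 and 35 of 58 were negative, and in replicate 1 alone the median without that step was 0.06. Respiratory chain and ATP synthase genes had 4 falls of 72 (5.56%, against 2.6% of all genes), 0 rises in limma (17 and 3 at an unadjusted p under 0.05) and a median of -0.06, which was -0.01 after quantile normalization. No respiratory fall was steady. Mitochondrial ribosomal proteins had 2 falls of 75 (2.67%), 0 rises in limma (13 and 10 at an unadjusted p under 0.05) and a median of 0.01, with MRPL33 (-0.49) steady. Among 29 proteasome genes and 34 nuclear pore genes 0 were called in limma, with 2 and 5 at an unadjusted p under 0.05 (6.9% and 14.7%).

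The remaining lists are given beside the 5.34% called over all genes. Heat shock proteins and chaperones had 2 rises and 3 falls in 30 (16.7%), and interferon response genes 1 rise and 2 falls in 27 (11.1%). Hypoxia and glycolysis genes had 1 rise in 35 (2.86%), VEGFA (0.68), autophagy and lysosome genes 1 of each in 42 (4.76%), and Wnt and Notch genes 0 of 37 in limma (4, or 10.8%, at an unadjusted p under 0.05). Of the lysosomal genes GLA, the galactosidase lacking in Fabry disease, fell by 0.35. CSNK1E, a kinase of the circadian clock, rose by 0.65. Of 359 ZNF zinc finger genes 4 rose and 1 fell (1.39%), and of 200 solute carrier genes 6 rose and 4 fell (5%). Of the latter, the potassium-chloride cotransporter gene SLC12A4 rose from dim values of 312, 174 and 109.7 to 709, 691 and 602 (1.87 (SE 0.29, adjusted p = 0.00414)). The zinc transporters SLC30A1, which exports zinc, and SLC39A10, which imports it, moved apart, by 0.52 and -0.56. By RefSeq class, 318 of 11320 protein-coding genes rose and 305 fell (5.5% called), and 8 and 7 of 526 long noncoding RNA genes did (2.85%). MIR9-1HG, the host transcript of a microRNA gene, rose from 332, 325 and 417 to 914, 869.7 and 808 (1.28 (SE 0.19, adjusted p = 0.0026)), and the small nucleolar RNA host gene SNHG17 rose by 0.52.

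The chance of a call and its direction depended on signal level. The tested probe sets were split into 5 equal classes of mean signal, from 188.3 to 406.6 units in the dimmest to over 5220 in the brightest. The share called was 0.934%, 2.05%, 3.68%, 6.63% and 7.01% from dim to bright, while the median SE of a log2 change fell from 0.29 to 0.07. A called change had a median fold of 2.43 in the dimmest class and 1.25 in the brightest, so a small shift of a dim gene was not detectable with these arrays. Rises made up 76.5%, 80.4%, 66.2%, 50.8% and 42% of the calls in the same order. The median log2 change of all probe sets went from 0.09 in the dimmest class to -0.03 in the brightest. With quantile normalization it was -0.01 and -0.0013, but that step gives every array the same distribution of signals and leaves little room for such a tilt. Whether the tilt came from scaling was not tested. After that step the calls in the brightest class were 246 higher and 220 lower in place of 161 and 222.

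The direction also went with gene length. Genes matched to RefSeq were split into 5 equal classes by genomic span, from under 9.33 kb to over 95.3 kb. Rises and falls numbered 115 and 42 in the shortest class, then 88 and 50, 69 and 57, 37 and 71, and 21 and 93 in the longest. The median span was 14.44 kb for genes called higher, 47.61 kb for genes called lower and 31.28 kb for genes not called. Median log2 changes were small, 0.05, 0.04, 0.01, -0.03 and -0.06 from short to long. After quantile normalization they were 0.04, 0.04, 0.01, -0.04 and -0.08, and the calls 130 and 42 in the shortest class and 21 and 97 in the longest. The longest class had negative medians in replicate 1 (-0.08), replicate 2 (-0.05) and replicate 3 (-0.05), but the shortest was at 0.07 and 0.10 in replicates 1 and 3 and at -0.01 in replicate 2. Median signals of the classes were alike, from 10.98 to 11.50 on the log2 scale, and the rises and falls were counted again within 3 equal classes of signal. In the brightest they were 47 and 26 in the shortest class and 4 and 40 in the longest, in the middle 40 and 12 against 7 and 43, and in the dimmest 28 and 4 against 10 and 10, where the longest genes had no excess of falls. Without the term for replicate 1 the calls were 28 and 4 in the shortest class and 5 and 4 in the longest. In the knockdown arrays, against the same wild type arrays, the medians were -0.0032 in the shortest class and -0.05 in the longest.

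A measure of RNA quality moved with the groups. The ratio of 3' to 5' signal of the ACTB control, which rises as RNA is degraded or copied short, was 1.425, 1.412 and 1.392 in wild type and 1.275, 1.375 and 1.175 after overexpression. The groups did not overlap (exact two-sided permutation p = 0.1, the smallest that 3 against 3 allows), while the GAPDH ratio overlapped, at 0.9897 to 1.035 and 0.9814 to 1.108. The part of RNA quality in the relation with gene length was not tested.

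**Figure D4:**
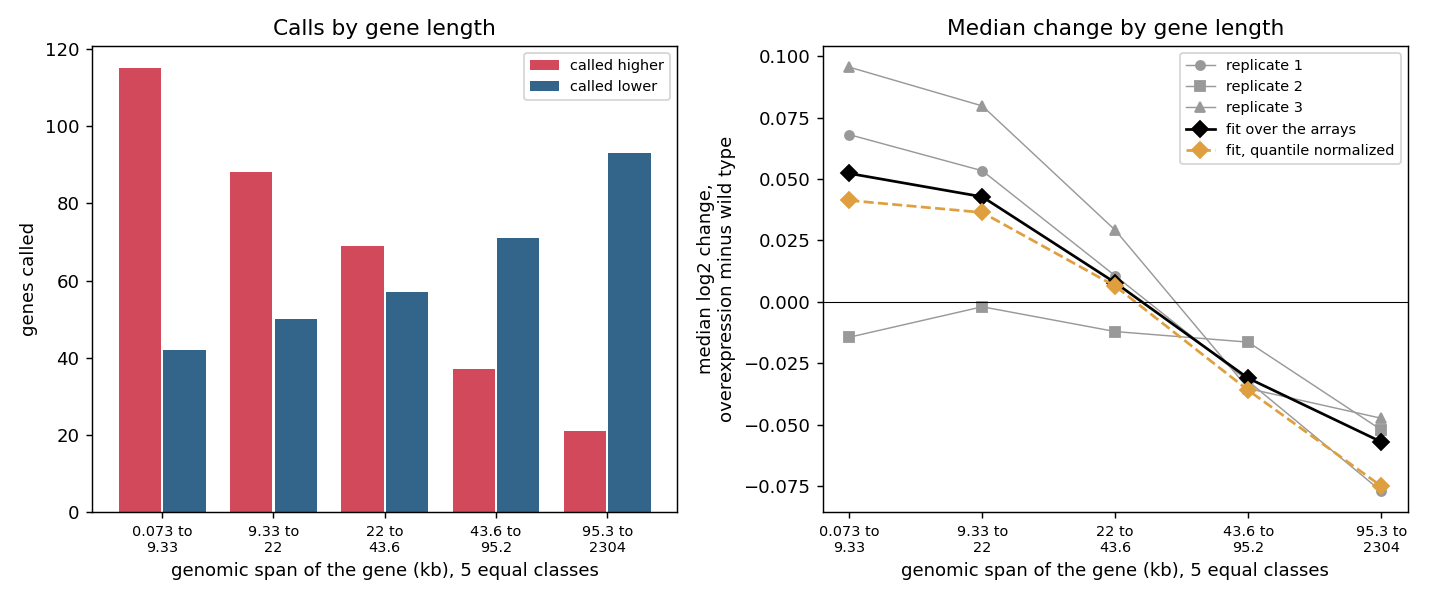
The left panel gives the number of genes called higher (red) and lower (blue) in 5 equal classes of genomic span in kb, from 115 and 42 in the shortest to 21 and 93 in the longest. The right panel gives the median log2 change, overexpression minus wild type, of all tested genes in each class, in each replicate (grey), in the limma fit (black) and in the fit after quantile normalization (orange), and replicate 2 is flatter than the others.

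Where a called gene was read by more than 1 tested probe set, the others mostly moved the same way. For 365 such genes 523 of 649 other probe sets had the same sign (80.6%, against 64.1% over all genes).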

How the data were processed

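Biotin-labelled total RNA was hybridised to 9 one-colour oligonucleotide arrays, 3 for each group, per the labels' protocols. The authors deposited linear intensity for each probe set. MAS5 is named for this step in the submitters' processing notes, with its version and settings not given in the sources used here. MAS5 estimates each array by itself and is noisy for dim probe sets.

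Values were taken as log2(signal + 1), and fold changes are on that scale, which understates changes of dim genes. The 62 control probe sets were left out of 54675, and 27307 probe sets whose mean over the 9 arrays reached the median (7.564, a signal of 188.3) were tested. All 9 arrays were fitted in limma 3.58.1 (R 4.3.3; lmFit, then eBayes with trend on), with 1 mean per group and a term for replicate 1, which left 5 residual degrees of freedom. Tests were two-sided, Benjamini-Hochberg adjustment ran over all 27307 probe sets, and the threshold was 0.05. On simulated data with the same design, the fit called 3 of 70 true changes of 0.3 on the log2 scale. It called 27 of 70 true changes of 0.5 and 34 of 60 of 1, with 1 false call, so true changes can be missed. No other of the 27307 simulated probe sets was changed, whereas 1109 were called in the data. The Benjamini-Hochberg cut was therefore stricter in the simulation, and its shares do not give the share missed in the data. Exact permutation tests used scipy 1.17.1, and plots matplotlib 3.10.9.

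Gene names came from the platform's annotation, in which 41091 probe sets had 1 symbol, 1801 several and 11721 none, and those with several or none were not named. Of the first, 41037 matched a RefSeq gene of GRCh38.p14 by Entrez ID. A gene is its tested probe set of highest mean signal. The sequence table held windows for 9889 of the 12036 tested genes.

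The comparison, its 54 gene lists and the rule for named genes were chosen with earlier results of these data known. The rule took KAT8, EGR1 and MAFF, the 15 called genes with the largest rise and the 15 with the largest fall, if seen inside replicate 1 and inside replicates 2 and 3 and if the brighter group was at or over the 75th percentile of signal, by the same conditions the 8 of smallest p in each direction among changes under 0.5 (log2) and the 5 brightest in each direction, and, from each list, at most 6 members, by smallest p. Some that met it were left out of the prose. Replicate numbers were checked for pairing by correlating deviations from group means: wild type and overexpression arrays of the same number correlated at 0.45, 0.16 and 0.08, which did not reach 0.1 for all, so the numbers were not taken to pair the samples. Other settings tried were no term, a replicate block, the 6 arrays alone, replicates 2 and 3 alone, a pseudocount of 16, other filters, quantile normalization, no trend, and leaving out each array.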

Additional observations from a re-analysis of the deposited data

Results flagged for a closer look

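Probe sets below the median signal were not tested in the comparison. When all 54613 probe sets were fitted with no filter, 20 of the 27306 dim ones passed an adjusted p of 0.05 in limma, 19 higher and 1 lower after overexpression. Of the 19, 18 also had a knockdown mean above the wild type mean. For 16 all 3 knockdown arrays lay above all 3 wild type arrays, which are the same arrays in both comparisons.

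A dim RPS6 probe set stood at 11.1, 65.5 and 48.3 in wild type, at 5262, 9827 and 5464 after overexpression and at 30.6, 10.3 and 23.3 after knockdown. Its log2 change was 7.59 (SE 0.60, adjusted p = 4.01e-05), while the 3 other RPS6 probe sets, with group means from 124800 to 161200, had log2 changes of -0.04, -0.16 and -0.13 and were not called.

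A dim RAP1A probe set stood at 86.6, 7.9 and 8.8 in wild type and at 833.1, 683.6 and 720.7 after overexpression, a log2 change of 5.24 (SE 0.69, adjusted p = 0.00214), beside 98.2, 22.2 and 22.1 after knockdown. A second one changed by 2.47 (adjusted p = 0.0528), and both brighter RAP1A probe sets by 0.05 and -0.04. What these probe sets read in the overexpression arrays was not tested.

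Dim probe sets of genes of the immediate early and ERK classes were among the 20: ETV5 (log2 change 4.61), ETV4 (3.68), FOSB (3.86) and MAFG (2.72), with wild type means between 11.8 and 53.3 and overexpression means between 163 and 360.1. Their knockdown means were 30.67 for ETV5, 84.73 for ETV4, 52.73 for FOSB and 235.3 for MAFG.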

How the results depend on the processing

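The number of probe sets called moved most. Without the term for replicate 1 there were 87 higher and 43 lower (66.9% higher), with replicates 2 and 3 alone 128 and 92 (58.2%), with no trend in the variance 130 and 80 (61.9%), and with no filter 352 and 279. A filter at the 75th percentile of signal gave 47.2% higher. Leaving out 1 array gave from 170 to 653 higher, from 149 to 604 lower, and from 50.7% to 58.6% higher. The counts stayed within 1.5 times with the 6 arrays alone, a pseudocount of 16, quantile normalization and a filter on any group's mean, which was added after seeing the data. With the replicate number as a block 568 were higher and 454 lower. The numbers share no stated source, and the block lost 10 of the 161 called genes that the naming rule took besides KAT8.

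The log2 change of KAT8 (0.51) had an adjusted p of 0.259 without the term, 0.0765 with no filter, 0.0524 with the filter on any group and 0.145 with no trend, all at 0.51, and 0.218 with replicates 2 and 3 alone, at 0.43. Without 1 array it ran from 0.40 to 0.57, at adjusted p from 0.0588 to 0.224. Of the 161 genes, 55 kept their call without the term, 55 with no trend, 115 with no filter, 157 with quantile normalization, and from 79 to 135 without 1 array. No called value changed its sign under the settings run. The cause of these differences was not tested. Signal limits the dim genes most: in the dimmest class the smallest called fold was 1.772.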

Other observations

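Some genes outside the lists kept their call without any single array, and are named after their values were seen. RBM3 went from 3210.2, 3957 and 4898 to 5481, 7546 and 6589 (0.71) and CIRBP from 7759.8, 6023 and 6229.9 to 10702, 8685 and 9516 (0.53), and these genes encode the RNA-binding proteins that cells make when cooled. TFPI2, a secreted protease inhibitor, rose from 333, 232 and 219.6 to 908, 646 and 937 (1.67), ANXA1, a phospholipid-binding protein, from 335, 572 and 479.7 to 882, 1312 and 1025 (1.23) and IGFBP7, a secreted binding protein, from 395, 677 and 654 to 913, 1550.5 and 1425 (1.17). CXCR4, the receptor of CXCL12 (0.72), KISS1R, the kisspeptin receptor (0.96), and TFRC, the transferrin receptor (0.60), rose as well. Signals run from WT1 to WT3 and then from OE1 to OE3, and values in brackets are log2 changes from limma.

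Falls were picked in the same way. IDH1, the cytosolic isocitrate dehydrogenase, fell from 17471, 18212 and 16298 to 10283, 11430.1 and 11835 (-0.63). SUCLG2, a subunit of succinyl-CoA ligase, fell from 3816, 4563 and 4620 to 2587, 3102 and 2772 (-0.62) and ALDH6A1, which acts in valine breakdown, from 6033, 5885 and 5899 to 4313, 4065 and 4223 (-0.50). Of the transcripts of the mitochondrial genome, ND6 rose by 0.79. ND2, which the naming rule took, rose by 0.41 (adjusted p = 0.0196 by limma), with a log2 change of 0.59 in the knockdown arrays. Its call was lost without either replicate 1 array, WT2 or OE3 (adjusted p up to 0.108).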
